A study of Mus musculus with 6 samples.

Results

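The genes described here are 10 mouse genes that report on or restrain Wnt signalling: Notum, Axin2, Lef1, Tcf7, Nkd1, Sp5, Cdx1, Ccnd1, Myc and Mycn. They were chosen by gene name, and every probe that the deposited bead array table lists under one of these names was taken. The table lists 28902 gene names, and the 10 genes have 20 of its 45281 probes. After the detection filter 12631 genes could be tested, among them 7 of the 10; the other 3, Lef1, Myc and Mycn, were detected on none of the 6 arrays. Expression was measured in 3 lines of mouse pluripotent stem cells with 2 arrays each. CL25 is the induced pluripotent stem (iPS) line that the labels write as PB-Oct4.2A.cherry (low), with the clone mark cl2.5 and the ending iPS-/-. O2ACH iPS is the line written as PB-Oct4.2A.cherry iPS-/-. The third line was embryonic stem (ES) cells, which come from the embryo itself, whereas iPS cells are body cells returned to a similar state. B6 is the background strain of all 3 lines, and no label says which gene the minus/minus sign refers to. All 3 lines grew with LIF, 3 µM CHIR99021 and 1 µM PD0325901, a GSK3 inhibitor and a MEK inhibitor that hold mouse cells in the naive state, in a medium with serum replacement. Every array thus came from cells under the same GSK3 inhibitor, and no comparison measures the effect of CHIR99021 itself. Each line is a single line, so a difference between lines is not separated from a difference between clones.

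In the Wnt pathway, secreted Wnt proteins bind Frizzled and Lrp receptors and stop a destruction complex, built on Axin and Apc with the kinase Gsk3, from marking beta-catenin for breakdown. Beta-catenin then enters the nucleus and works with the Tcf and Lef proteins on target genes, several of which feed back to damp the signal. CHIR99021 blocks Gsk3 inside the cell, so beta-catenin is stabilised without a Wnt protein, and in mouse embryonic stem cells this relieves repression by Tcf7l1. Notum, Axin2 and Nkd1 are feedback inhibitors, Tcf7, Lef1, Sp5 and Cdx1 encode transcription factors, and Ccnd1, Myc and Mycn encode drivers of growth and division.

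The arrays were similar in depth of detection, with 35.9% to 37.6% of probes detected and a median intensity between 87.3 and 95.98. All 10 pluripotency markers were detected on all 6 arrays, and their summed intensity was 58957 and 50198 in CL25, 51199 and 54476 in O2ACH iPS, and 58816 and 57947 in ES cells. Pou5f1, which encodes Oct4, passed the test as lower in CL25 than in both other lines and as lower in O2ACH iPS than in ES cells. Of the markers of other cell types, 4 of 12 for extraembryonic endoderm, 4 of 9 for primitive streak and mesoderm, 2 of 10 for trophectoderm and 7 of 12 for fibroblasts and feeders were detected on no array, among them Gata4, Sox17, T, Mesp1, Col1a1 and Col3a1. Others were detected on all 6, 4, 2, 3 and 1 in the same order. Some markers of other cell types were higher in CL25, and their values stand beside Notum.

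Of the 7 tested genes, 1 passed an adjusted p of 0.05 in CL25 against ES cells, and none in CL25 against O2ACH iPS or in O2ACH iPS against ES cells (limma with Benjamini-Hochberg adjustment over all genes tested). The gene that passed was Notum. Over all genes, 4.16% passed in CL25 against ES cells (2.26% higher, 1.91% lower), 2.24% in CL25 against O2ACH iPS (1.16% higher, 1.08% lower) and 0.808% in O2ACH iPS against ES cells (0.428% higher, 0.38% lower). At an unadjusted p under 0.05 the counts among the 7 genes were 3 in CL25 against ES cells, 4 in CL25 against O2ACH iPS and 2 in O2ACH iPS against ES cells, where 19.5%, 16.2% and 14.1% of all genes were. In CL25 against O2ACH iPS the arrays of the lines did not overlap for 6 of the 7, 1 higher and 5 lower, where 48.8% of all genes did not overlap, 23.4% higher and 25.4% lower. In CL25 against ES cells they did not overlap for 5 of the 7, 2 higher and 3 lower, against 50.5% of all genes, 23.5% higher and 27% lower. In O2ACH iPS against ES cells 5 of the 7 did not overlap, all higher in O2ACH iPS, against 42.2% of all genes, 20.9% higher and 21.3% lower. The median difference of the 7 genes was -0.46 on the log2 scale in CL25 against O2ACH iPS, -0.10 in CL25 against ES cells and 0.65 in O2ACH iPS against ES cells, where that of all genes was -0.02, -0.02 and -0.00. The comparisons share arrays, 2 by 2, so they are not independent of one another. The calls and p-values here are from the fit without a replicate block. With the replicate number as a block, Sp5 also passed in CL25 against ES cells, where 7.21% of all genes passed. Cdx1 then passed in CL25 against O2ACH iPS, where 5.14% of all genes passed.

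**Figure D1:**
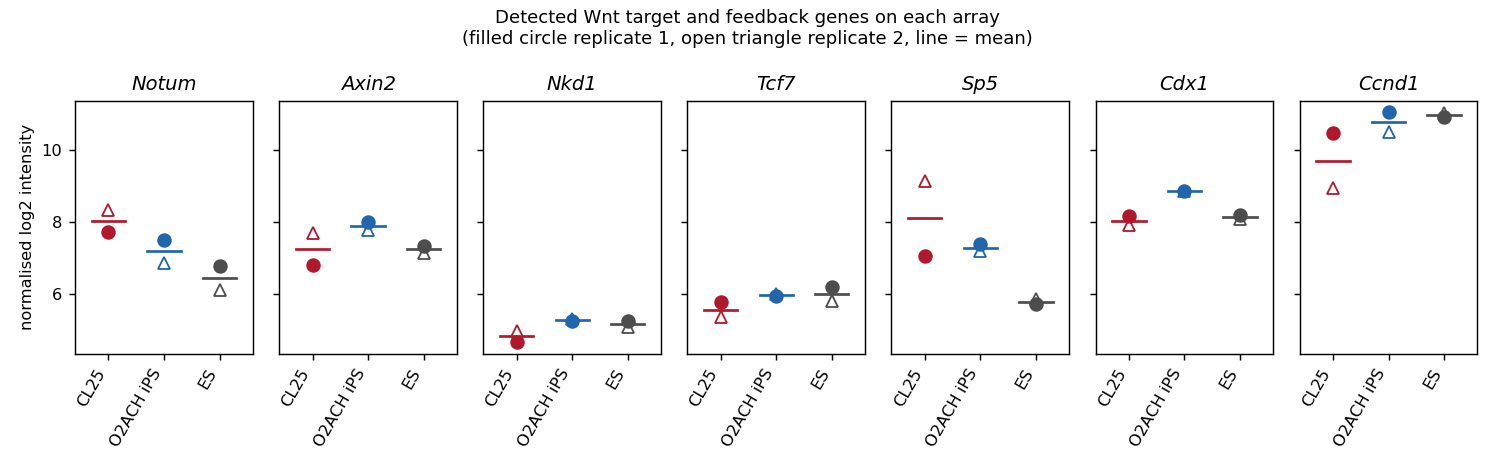
Normalised log2 intensity (vertical axis) of the brightest kept probe of each detected gene on each of the 6 arrays, by line (horizontal axis); circles are replicate 1, triangles replicate 2 and lines the means of 2 arrays. Notum was highest on both CL25 arrays, Cdx1 on both O2ACH iPS arrays, and the CL25 arrays lay far apart for Sp5 and Ccnd1.

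Notum encodes a secreted enzyme that removes the lipid from Wnt proteins and so inactivates them outside the cell. Its brighter probe, on chromosome 11 per the deposited table, read 293 and 392 in CL25, 226 and 188 in O2ACH iPS, and 174 and 143 in ES cells. Both CL25 arrays were above all other arrays, and both O2ACH iPS arrays were above both ES arrays. These are deposited intensities that still include the background of the array, so their ratios are smaller than the tested differences, which were taken after background correction. The difference in mean normalised log2 intensity was 1.59 ± 0.34 (SE, n = 2 arrays a line) in CL25 against ES cells, 3.02-fold, with a 95% interval of 0.81 to 2.38 and an adjusted p of 0.0469 by limma. CL25 against O2ACH iPS gave 0.85 ± 0.34 (interval 0.06 to 1.64, adjusted p = 0.273 by limma) and O2ACH iPS against ES cells 0.74 ± 0.34 (interval -0.05 to 1.53, adjusted p = 0.379 by limma). A dimmer Notum probe read 129 and 146 in CL25, 104 and 101 in O2ACH iPS, and 84.4 and 89.3 in ES cells. It was detected on both CL25 arrays, 1 O2ACH iPS array and no ES array, so its difference is a bound, and it was at least 1.96-fold higher in CL25 than in ES cells, with an adjusted p of 0.0221 in a limma fit over all kept probes. A further probe is listed under 5730593N15RIK, a synonym of Notum, and so was not among the 20. It read 140.3 and 153 in CL25, 102 and 107 in O2ACH iPS, and 107 and 95.7 in ES cells, and differed by 1.11 on the log2 scale in CL25 against ES cells (adjusted p = 0.0496 by limma over all kept probes).

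The call for Notum in CL25 against ES cells sat close to the threshold. It was lost when CL25 replicate 1, CL25 replicate 2 or ES replicate 2 was left out. In each of these fits 1 line kept a lone array, and fewer of all genes passed as well. The difference stayed between 1.08 and 1.93 on the log2 scale under all 15 alternatives run, 10 of which kept the call. Leaving out 1 array gave 0.53 to 1.18 in CL25 against O2ACH iPS and 0.41 to 1.08 in O2ACH iPS against ES cells, and neither passed.

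Some markers of other cell types were higher in CL25, the line in which Notum was highest, and others were not. On the log2 scale Sox7 differed by -0.02, Amn by -0.40 and Tead4 by -0.57 in CL25 against ES cells, and none of these passed. Gata6, a marker of extraembryonic endoderm, read 457 and 276 in CL25, 122 and 149 in O2ACH iPS, and 112 and 145 in ES cells. Dab2 of the same list and Gsc, a marker of the primitive streak, also passed in CL25 against ES cells. Of the 8 extraembryonic endoderm genes tested, 2 passed as higher in CL25 against ES cells and none as lower. The summed intensity of all 12 genes of that list was 5704 and 5609 in CL25, 2799 and 3999 in O2ACH iPS, and 2953 and 3805 in ES cells, with 7 or 8 genes detected on a CL25 array, 6 on an O2ACH iPS array and 8 on an ES array. Sparc alone of that list read 3417 and 3480 in CL25, 1563 and 2386 in O2ACH iPS, and 1451 and 1959 in ES cells. The array holds 9 primitive streak and mesoderm genes. Their sums were 1427 and 1539 in CL25, 924 and 1037 in O2ACH iPS, and 897 and 922 in ES cells. Most of the difference between lines in these sums lay in Gsc. It read 665 and 797 in CL25, 186 and 295 in O2ACH iPS, and 201 and 134 in ES cells. Of the 8 trophectoderm genes tested none passed in CL25 against ES cells. The 10 genes listed summed to 5300.0 and 5924 in CL25, 2466 and 3532 in O2ACH iPS, and 3474 and 2911 in ES cells. Most of the difference between CL25 and the other lines in these sums lay in Tfap2c. That gene read 3898 and 4601 in CL25, 1327 and 2261 in O2ACH iPS, and 2261 and 1624 in ES cells. Gata3 of that list read 144 and 116 in CL25, 178 and 144.0 in O2ACH iPS, and 86.5 and 81.2 in ES cells, where it was not detected. It was at least 2.87-fold higher in O2ACH iPS than in ES cells (adjusted p = 0.0402 by limma). The 12 fibroblast and feeder genes summed to 2027 and 2111 in CL25, 2007 and 1824 in O2ACH iPS, and 1752 and 2459 in ES cells. Vim, the one gene of that list detected on all 6 arrays, read 941 and 1145 in CL25, 879.8 and 687 in O2ACH iPS, and 709 and 526 in ES cells. Acta2 read 86.6 and 86.3 in CL25, where it was not detected, 273 and 166 in O2ACH iPS, and 185 and 1037 in ES cells. Neither passed in any of the 3 comparisons. The part of such cells in the result for Notum was not tested, and in bulk RNA more cells of a type and more RNA per cell cannot be told apart.

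Axin2 encodes a scaffold of the destruction complex and is a widely used reporter of beta-catenin activity. Its single probe, on chromosome 11, read 189 and 275 in CL25, 294 and 288 in O2ACH iPS, and 225 and 222 in ES cells. The O2ACH iPS arrays were above all the others, and the CL25 arrays lay on either side of the ES arrays. The difference was -0.64 ± 0.29 on the log2 scale in CL25 against O2ACH iPS (SE, n = 2, adjusted p = 0.348 by limma) and 0.65 ± 0.29 in O2ACH iPS against ES cells (adjusted p = 0.377 by limma). In CL25 against ES cells it was 0.01 ± 0.29 with a 95% interval of -0.68 to 0.70. A change of up to about that size in either direction was thus not excluded by these arrays. The values moved with the CL25 array used: without CL25 replicate 1 the difference was -0.20 against O2ACH iPS and 0.45 against ES cells, and without CL25 replicate 2 it was -1.09 and -0.43. It was -0.08 against ES cells without ES replicate 2.

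Nkd1 encodes an inhibitor that binds Dishevelled, the relay between receptor and destruction complex. Its brighter probe, on chromosome 8, was near the detection level, at 93.6 and 98.1 in CL25, 101 and 109.8 in O2ACH iPS, and 103 and 103 in ES cells. It was detected on no CL25 array, both O2ACH iPS arrays and 1 ES array. Its difference is therefore a bound, at least 1.15-fold lower in CL25 than in O2ACH iPS, and it did not pass (adjusted p = 0.292 by limma). The dimmer Nkd1 probe was detected on 1 O2ACH iPS array, 1 ES array and no CL25 array.

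Tcf7 encodes Tcf1, a Tcf factor that mainly activates target genes with beta-catenin. Its brighter probe, on chromosome 11, had normalised log2 values of 5.77 and 5.34 in CL25, 5.93 and 5.98 in O2ACH iPS, and 6.19 and 5.79 in ES cells. The CL25 values were the lowest, although the upper one lay just under the lower ES array. The difference was -0.40 ± 0.23 in CL25 against O2ACH iPS and -0.43 ± 0.23 in CL25 against ES cells (SE, n = 2, adjusted p = 0.452 and 0.352 by limma). The second Tcf7 probe, also detected on all 6 arrays, gave -0.09 and -0.07 in the same comparisons. Without CL25 replicate 1 the brighter probe gave -0.61 and -0.65, and without CL25 replicate 2 -0.19 and -0.22.

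Sp5 encodes a zinc finger factor that beta-catenin activates directly and that in turn represses Wnt target genes. In the 250 bases before its annotated start it holds the Tcf and Lef core CTTTGA, searched on both strands, at 2 places, 204 and 104 bases before the start, and the sequences below are shown because Sp5 and Axin2, both widely used as Wnt reporters, differ in this respect. The Axin2 window holds no match. Windows of 6 of the 10 genes are described here. The table used held no sequence for Notum, Ccnd1 and Myc, and Cdx1 was left out of the description. Of the other genes described, Mycn holds 1 match, 1 of the 4 Lef1 starts holds 2, and Nkd1 and Tcf7 hold none. Of 32851 such windows in the table, 13.8% hold the core at least once and 1.37% at least 2 times, and a match is a description of the letters, not a site. The sequences are from RefSeq on GRCm38.p6, plus strand, 5′ to 3′, with CTTTGA in capitals; Sp5 is chr2:70474673-70474922 and Axin2 is chr11:108920099-108920348.
Sp5: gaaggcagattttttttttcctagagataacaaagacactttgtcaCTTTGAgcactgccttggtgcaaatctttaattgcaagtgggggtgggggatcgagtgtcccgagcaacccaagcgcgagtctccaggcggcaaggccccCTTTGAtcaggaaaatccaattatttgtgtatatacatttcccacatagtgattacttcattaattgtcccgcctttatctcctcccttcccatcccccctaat
Axin2: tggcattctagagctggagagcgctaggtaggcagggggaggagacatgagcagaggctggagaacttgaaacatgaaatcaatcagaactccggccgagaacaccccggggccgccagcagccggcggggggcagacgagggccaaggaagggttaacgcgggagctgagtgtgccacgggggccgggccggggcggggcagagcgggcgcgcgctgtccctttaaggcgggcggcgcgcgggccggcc

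Sp5 was read by 1 probe, on chromosome 2, at 211 and 633 in CL25, 212 and 216 in O2ACH iPS, and 118 and 131 in ES cells. All 4 arrays of CL25 and O2ACH iPS were above both ES arrays. In CL25 only replicate 2 was above the O2ACH iPS arrays, and replicate 1 was below them. The difference was 2.33 ± 0.57 on the log2 scale in CL25 against ES cells (SE, n = 2, interval 0.98 to 3.67, 5.02-fold), which did not pass (adjusted p = 0.0724 by limma), and with the replicate number as a block it passed (adjusted p = 0.0406 by limma, where 7.21% of all genes passed). The fit shares a single spread over the 3 lines, so every SE of Sp5 includes the gap of 2.08 between the CL25 arrays. The gap was 0.20 in O2ACH iPS and 0.14 in ES cells. In O2ACH iPS against ES cells the difference was 1.503 ± 0.57 (2.83-fold, adjusted p = 0.296 by limma). In CL25 against O2ACH iPS it was 0.83 ± 0.57 (adjusted p = 0.553 by limma). Without CL25 replicate 1 the last difference was 1.86 (adjusted p = 0.0448 by limma), and without CL25 replicate 2 it turned to -0.21. In CL25 against ES cells it was 3.37 without CL25 replicate 1 and 1.29 without CL25 replicate 2.

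Cdx1 encodes a caudal-type homeobox factor of the posterior embryo that is a direct Wnt target. Its brighter probe, on chromosome 18, read 368 and 313 in CL25, 475 and 540.3 in O2ACH iPS, and 359 and 360.0 in ES cells. Both O2ACH iPS arrays stood above all others, and for this probe the CL25 arrays lay on either side of the ES arrays (-0.10 ± 0.18 on the log2 scale, SE, n = 2, interval -0.52 to 0.32). CL25 against O2ACH iPS gave -0.83 ± 0.18 (interval -1.25 to -0.41), which did not pass at an adjusted p of 0.0694 by limma. It passed with the replicate number as a block, at an adjusted p of 0.0414 by limma, where 5.14% of all genes passed. O2ACH iPS against ES cells gave 0.72 ± 0.18 (adjusted p = 0.147 by limma). The second Cdx1 probe read 263 and 239 in CL25, 340.4 and 472 in O2ACH iPS, and 314 and 330.5 in ES cells, again highest in O2ACH iPS, with -0.995 in CL25 against O2ACH iPS (adjusted p = 0.0530 by limma over all kept probes). For this probe both CL25 arrays were also below both ES arrays, by -0.48 (interval -0.93 to -0.02, adjusted p = 0.238 by limma over all kept probes).

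Ccnd1 encodes cyclin D1, which starts the entry into division. The brightest of its 3 probes read 1554 and 561 in CL25, 1947 and 1529 in O2ACH iPS, and 1982 and 2267 in ES cells. Both CL25 arrays were below both ES arrays and, after normalisation, below both O2ACH iPS arrays, and CL25 replicate 2 was the lowest by far. The difference was -1.29 ± 0.46 on the log2 scale in CL25 against ES cells and -1.08 ± 0.46 in CL25 against O2ACH iPS (SE, n = 2, adjusted p = 0.180 and 0.305 by limma). The other probes, at 1079 and 452 and at 268 and 124 in CL25, gave -1.25 and -0.98 in CL25 against ES cells. Without CL25 replicate 1 the brightest probe differed by -2.05 in CL25 against ES cells (adjusted p = 0.0384 by limma), and without CL25 replicate 2 by -0.52 (adjusted p = 0.581 by limma). Against O2ACH iPS the same 2 values were -1.85 and -0.32 (adjusted p = 0.0799 and 0.844 by limma). Of the other D-type cyclins and partners, Ccnd3 and the kinase gene Cdk4 were tested and neither passed in any of the 3 comparisons. Their brightest probes gave differences between -0.18 and 0.26 on the log2 scale. A second Ccnd3 probe gave 0.52 in CL25 against ES cells and 0.35 in CL25 against O2ACH iPS (adjusted p = 0.191 and 0.442 by limma over all kept probes).

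**Figure D2:**
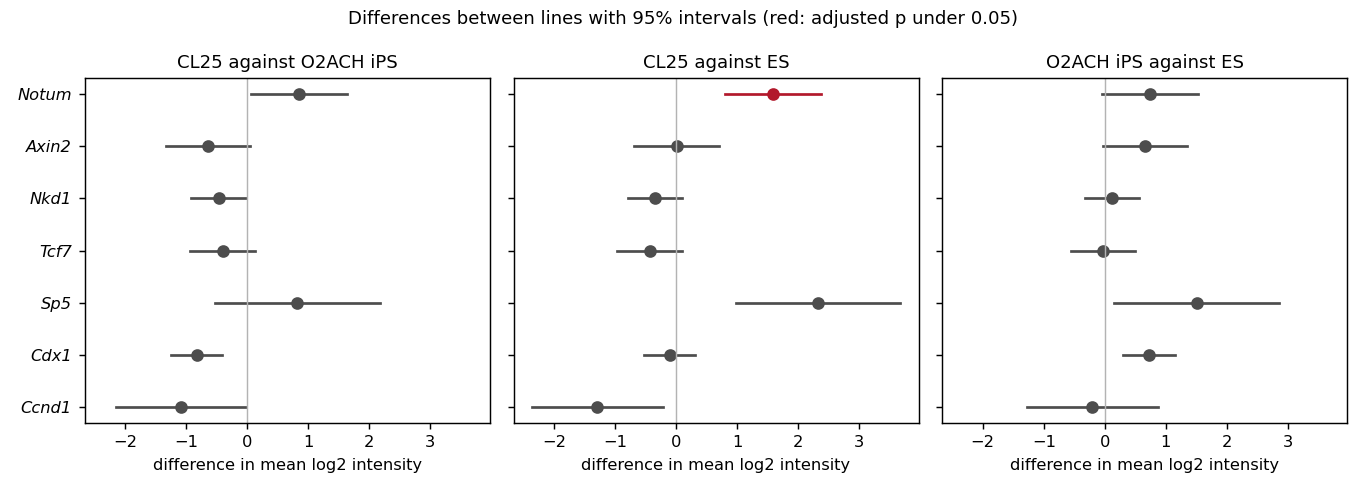
Difference in mean normalised log2 intensity (horizontal axis) of each tested gene in the 3 comparisons, with 95% intervals from the limma fit; red marks an adjusted p under 0.05. Notum in CL25 against ES cells is the one red point, and the interval of Sp5 there, 0.98 to 3.67, also lies above 0.

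Within CL25 the replicate arrays differed widely for some of these genes. The gap between the 2 CL25 arrays was 2.08 on the log2 scale for Sp5, and 0.0713% of all tested genes had a larger one. It was 1.53 for Ccnd1 (0.317% larger) and 0.88 for Axin2 (2.14% larger), where the median gap of all genes was 0.19. Replicate 2 was the higher array for Sp5, Axin2 and Notum and the lower one for Ccnd1. In O2ACH iPS the gap of Sp5 was 0.20 and in ES cells 0.14.

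Lef1 encodes the Lef factor that in many tissues is both partner and target of beta-catenin, and Myc and Mycn encode related growth regulators. The 4 Lef1 probes read 73.6 to 88.2, the 2 Myc probes 70.8 to 89.8 and the Mycn probe 69.6 to 84.8 over the 6 arrays. No probe of the 3 genes was detected on any array at a detection p under 0.05, and the lowest detection p was 0.176 for Lef1 and for Myc and 0.557 for Mycn. The dimmest intensity called detected on an array was 97.2 to 107, so no order between the lines can be read for these genes. The table gives chromosome 3 for 2 of the Lef1 probes, 15 for Myc and 12 for Mycn. Whether a probe of these genes can report a high level was not tested, since all 6 arrays are alike in this.

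**Figure D3:**
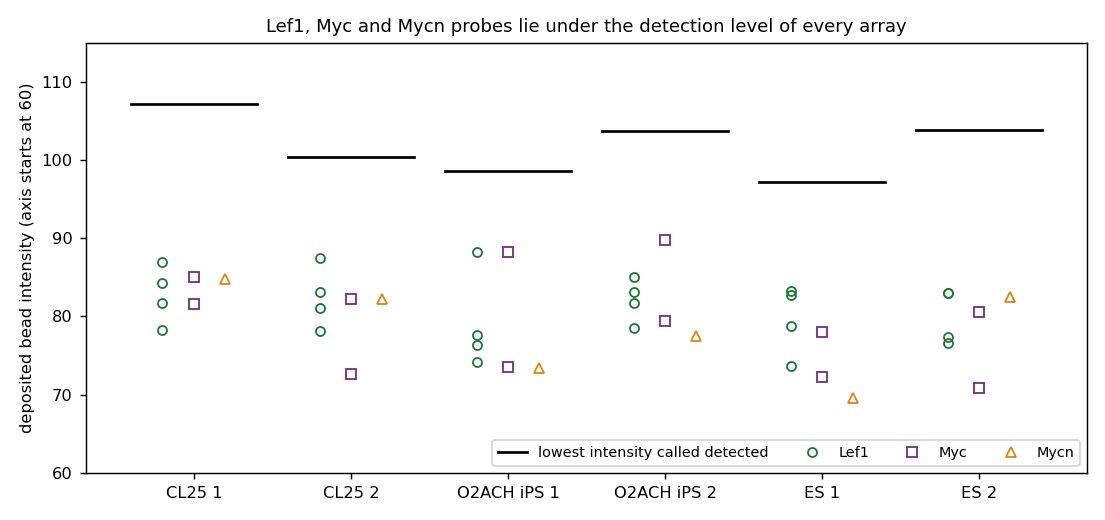
Deposited bead intensity (vertical axis, from 60) of every Lef1, Myc and Mycn probe on each of the 6 arrays (horizontal axis); black bars mark the lowest intensity called detected on that array. All points, 69.6 to 89.8, lie below the bars, which run from 97.2 to 107.

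Around these targets, 120 of 122 further genes of the pathway are on the array and 64 were tested. In CL25 against ES cells 1 passed as higher and 5 as lower, where 2.26% of all genes passed as higher and 1.91% as lower. In CL25 against O2ACH iPS 1 passed as higher and 2 as lower, where the shares of all genes were 1.16% and 1.08%. In O2ACH iPS against ES cells none passed, where the shares were 0.428% and 0.38%. At an unadjusted p under 0.05 by limma the counts among the 64 were 24, 22 and 12 in the same order, where 19.5%, 16.2% and 14.1% of all genes were. With the replicate number as a block the counts were 10, 8 and 2 in the same order, where 7.21%, 5.14% and 2.15% of all genes passed. The median difference of the 64 genes was -0.08 on the log2 scale in CL25 against ES cells, -0.18 in CL25 against O2ACH iPS and 0.05 in O2ACH iPS against ES cells.

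Of the 19 Wnt ligand genes 3 were tested, and Wnt3a, a ligand that activates the beta-catenin branch, fell in CL25 against ES cells. It read 109.6 and 103 in CL25, 125 and 119 in O2ACH iPS, and 221 and 203 in ES cells. The dimmest intensities called detected on the CL25 arrays were 107 and 100, so the CL25 mean lies near the detection level. Both ES arrays stood above all others, and the difference was -1.96 ± 0.22 on the log2 scale in CL25 against ES cells (SE, n = 2, 3.88-fold lower, adjusted p = 0.00609 by limma). In O2ACH iPS against ES cells it was -1.31 ± 0.22, with an adjusted p of 0.0542 by limma and of 0.0253 with the replicate block. Neither of the 2 secretion genes passed. Porcn, the enzyme that adds the lipid to Wnt proteins, read 311 and 353 in CL25, 1254 and 658 in O2ACH iPS, and 814 and 937 in ES cells. Both CL25 arrays were below all others, at -1.63 ± 0.36 in CL25 against ES cells and -1.81 ± 0.36 in CL25 against O2ACH iPS (SE, n = 2, adjusted p = 0.0552 and 0.0559 by limma). With the replicate block both passed, at 0.0414 and 0.0375. Wls, the other secretion gene, ran the other way. It gave 0.58 ± 0.22 in CL25 against ES cells and 0.54 ± 0.22 in CL25 against O2ACH iPS (SE, n = 2, adjusted p = 0.200 and 0.290 by limma). Its other kept probes were also higher in CL25 in both comparisons.

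Among 10 tested receptors and co-receptors, 2 fell in CL25 against ES cells and 1 in CL25 against O2ACH iPS. Fzd5, a Frizzled receptor, read 829 and 678 in CL25, 1731 and 1746 in O2ACH iPS, and 2055 and 1601 in ES cells. Both CL25 arrays were below all others, with differences of -1.42 ± 0.22 against O2ACH iPS and -1.36 ± 0.22 against ES cells (SE, n = 2, adjusted p = 0.0275 and 0.0209 by limma). A second Fzd5 probe gave -0.84 and -0.56, which did not pass among all kept probes (adjusted p = 0.0861 and 0.180 by limma). Lrp6, the co-receptor, read 142 and 135 in CL25, 138 and 149 in O2ACH iPS, and 184 and 214 in ES cells. In O2ACH iPS against ES cells the difference was -0.68 ± 0.17 (SE, n = 2, adjusted p = 0.152 by limma). In CL25 against ES cells it was -0.92 ± 0.17 (SE, n = 2, adjusted p = 0.0325 by limma). Its second probe gave -0.46 and was detected on no CL25 array, at least 1.22-fold lower there than in ES cells (adjusted p = 0.207 by limma over all kept probes). Fzd6, another Frizzled receptor, read 116 and 131 in CL25, 134 and 158 in O2ACH iPS, and 173 and 173 in ES cells. It gave -0.99 ± 0.24 in CL25 against ES cells (SE, n = 2, adjusted p = 0.0672 by limma, and 0.0441 with the replicate block). None of the 9 genes of R-spondins, their Lgr receptors and the ligases Rnf43 and Znrf3 passed the detection filter.

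Of 7 tested secreted inhibitors, Dkk3 fell in both comparisons of CL25. It belongs to the Dickkopf family but is a divergent member of it. Dkk3 read 109 and 89.6 in CL25, 189.8 and 282 in O2ACH iPS, and 142 and 145 in ES cells, and 1 of the 2 CL25 arrays detected it, so that the CL25 mean lies at the detection level. The difference in normalised log2 intensity was -2.51 ± 0.26 in CL25 against O2ACH iPS (SE, n = 2, adjusted p = 0.00803 by limma) and -1.28 ± 0.26 in CL25 against ES cells (adjusted p = 0.0414 by limma). Its second probe gave -2.18 and -0.91, of which the first passed (adjusted p = 0.0106 and 0.116 by limma over all kept probes). Sfrp1, which binds Wnt proteins outside the cell, gave -1.42 ± 0.33 in CL25 against ES cells (SE, n = 2, adjusted p = 0.0590 by limma, and 0.0367 with the replicate block). Wif1, which also binds Wnt proteins, ran the other way, at 136 and 129 in CL25, 109 and 122 in O2ACH iPS, and 102 and 104 in ES cells, where 1 array did not detect it. Both CL25 arrays were above all others, and the difference in CL25 against ES cells was 0.78 ± 0.17 (SE, n = 2, adjusted p = 0.0551 by limma, and 0.0428 with the replicate block).

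Among 14 tested genes of the cytoplasmic relay and the destruction complex, 1 rose in each comparison of CL25 and none fell in the fit without the replicate block. Btrc, whose product recognises phosphorylated beta-catenin and brings it to breakdown, read 1228 and 1125 in CL25, 394 and 643 in O2ACH iPS, and 537 and 601 in ES cells. Both CL25 arrays were above all others, by 1.22 ± 0.23 against O2ACH iPS and 1.15 ± 0.23 against ES cells (SE, n = 2, adjusted p = 0.0481 and 0.0407 by limma). Its second probe gave 1.29 and 0.72, and neither passed among all kept probes (adjusted p = 0.0861 and 0.253 by limma). Dvl2, which encodes a Dishevelled, read 98.8 and 93.4 in CL25, where it was not detected, 114 and 125 in O2ACH iPS, and 112 and 104 in ES cells. It was at least 1.58-fold lower in CL25 than in O2ACH iPS, with an adjusted p of 0.0697 by limma and of 0.0454 with the replicate block. Ctnnb1, the gene of beta-catenin itself, and Gsk3b, the gene of a Gsk3 kinase, lay outside the rule for named genes and were chosen after their values were seen, as the protein that the inhibitor stabilises and the kinase that it blocks. Ctnnb1 differed by 0.05 in CL25 against O2ACH iPS and by 0.07 in CL25 against ES cells (intervals -0.47 to 0.56 and -0.45 to 0.59). Gsk3b gave 0.56 in CL25 against O2ACH iPS and 0.49 in CL25 against ES cells (adjusted p = 0.196 and 0.202 by limma).

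Of 10 tested nuclear factors 1 fell in CL25 against ES cells. Bcl9, an adaptor that links beta-catenin to co-activators, read 139.5 and 134 in CL25 against 194 and 199 in ES cells, a difference of -0.92 ± 0.19 (SE, n = 2, adjusted p = 0.0423 by limma). Its dimmer probe was detected on no CL25 array and gave no bound above 1. Tcf7l2, another Tcf factor, gave 1.11 ± 0.24 in CL25 against O2ACH iPS (SE, n = 2, adjusted p = 0.0701 by limma, and 0.0480 with the replicate block). None of the 6 other target genes, the 6 Myc partners and antagonists or the 4 pluripotency genes that Tcf7l1 represses passed in any of the 3 comparisons without the block. Among them, Tnfrsf19 gave 1.51 ± 0.39 in CL25 against ES cells (SE, n = 2, adjusted p = 0.0858 by limma). It was also higher in O2ACH iPS than in ES cells, by 1.37 ± 0.39 (adjusted p = 0.199 by limma), and differed by 0.13 ± 0.39 in CL25 against O2ACH iPS. Mycl, the third Myc family gene, was detected on all 6 arrays and gave -1.07 ± 0.24 in CL25 against O2ACH iPS and 1.12 ± 0.24 in O2ACH iPS against ES cells (SE, n = 2, adjusted p = 0.0762 and 0.105 by limma). With the replicate block both passed, at 0.0326 and 0.0436. The calls among the 64 genes changed when 1 array was left out, and without CL25 replicate 2 none was left in either comparison of CL25. Without that array fewer of all genes passed as well.

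**Figure D4:**
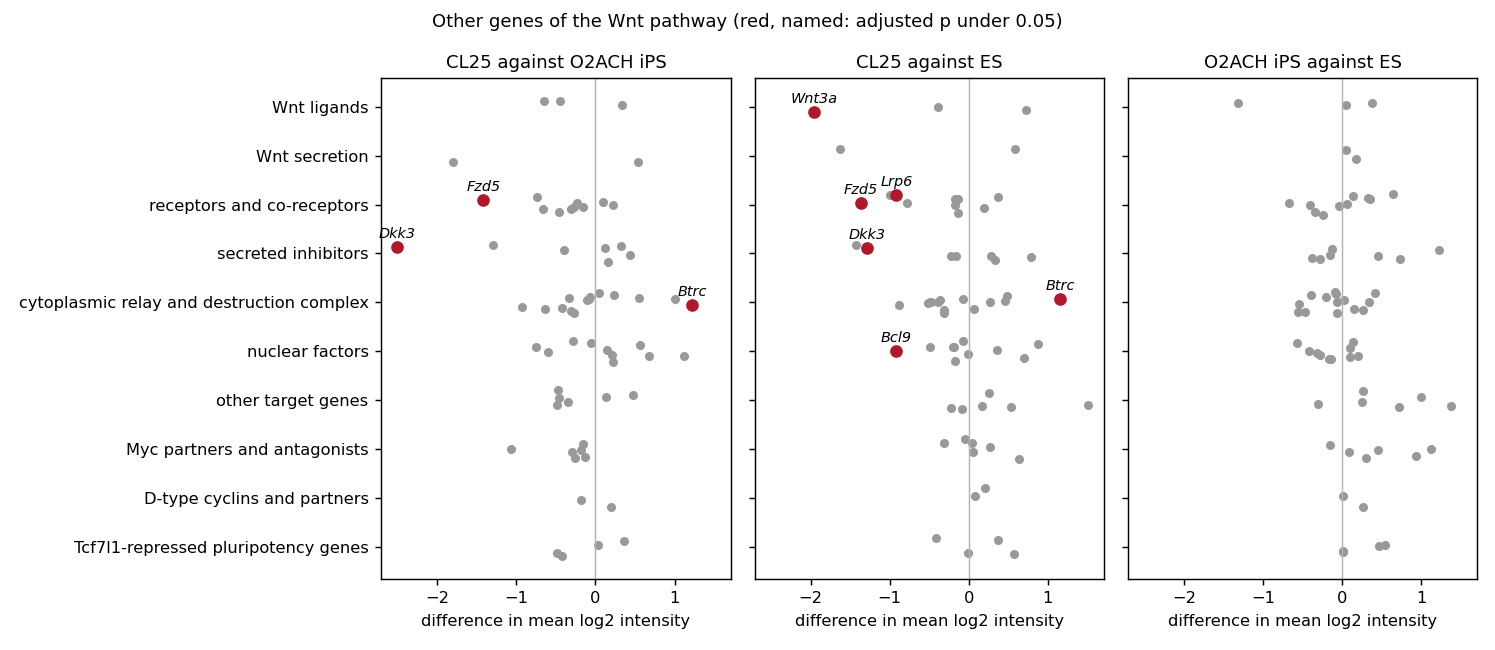
Difference in mean normalised log2 intensity (horizontal axis) of the other tested Wnt pathway genes, by list, in the 3 comparisons; each point is a gene, and red named points have an adjusted p under 0.05. Wnt3a, Fzd5, Lrp6, Dkk3 and Bcl9 lie to the left in CL25 against ES cells and Btrc to the right; there is no red point in O2ACH iPS against ES cells.

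Notum was the one called gene in the fit without the replicate block. The 3 tested genes whose centred log2 values over the 6 arrays lay nearest to it by Euclidean distance were Mgll (0.57), Apom (0.61) and Oas1g (0.62). Mgll encodes a monoglyceride lipase and Apom an apolipoprotein. Mgll had normalised log2 values of 6.48 and 7.02 in CL25, 6 and 6.06 in O2ACH iPS, and 5.60 and 5.15 in ES cells, the same order of lines as Notum. The likeness is a description over 6 arrays of 3 lines.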

How the data were processed

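RNA of 6 samples, 2 for each of 3 lines, was hybridised to Illumina bead arrays; per the labels' protocols it was extracted on RNeasy columns and labelled with the TotalPrep-96 kit. Per the file headers, the deposited table holds the average intensity of 45281 probes on each array, each with its detection p-value. The sources used here do not state the array model, the scanner software or the annotation build. The deposited values were neither background-corrected nor normalised. The series' design text names the 2 samples of a line biological replicates without saying how they were separated, so p-values measure only the spread between samples of one line, and the number of arrays limits the precision.

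Probe names were brought to current symbols with a RefSeq gene table of GRCm38.p6 (27760 probes by symbol, 7994 by synonym, 9527 kept as listed). In R 4.3.3 with limma 3.58.1, nec corrected the background (offset 16) and values were quantile normalised. A probe was kept where 2 or more of the 6 arrays detected it at p under 0.05 (18175 probes), with the brightest kept probe for each gene (12631 genes). The offset shrinks the changes of dim genes. lmFit and eBayes fitted 3 line means (3 residual and 4.27 prior degrees of freedom), with Benjamini-Hochberg adjustment over all genes and calls at an adjusted p under 0.05. Each gene has a single spread shared by the 3 lines, so an SE also reflects the line outside the comparison. The procedure was tested on simulated data.

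Replicate numbers come from the sample titles. The replicate 2 minus replicate 1 differences correlated across 12631 genes at 0.298 between CL25 and O2ACH iPS. The values were 0.183 between CL25 and ES cells and 0.323 between O2ACH iPS and ES cells. The numbers may thus pair the arrays. The main fit used the line only, and a second fit added the replicate number as a block. Blocked values stand where they change a call of a gene named in the text. A bound sets the brighter line's mean against the dim line's, in which each array counts at its lowest detected signal or at the probe's own signal, whichever is higher.

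Named genes are the 10 genes, pathway-list genes that passed or were among the 2 with the smallest p of a list in a comparison (in the text where they bear on a result), and the 3 genes nearest to a called one. The members and all lists were chosen with earlier results of these data known.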

Additional observations from a re-analysis of the deposited data

How the results depend on the processing

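Among the 7 genes, counts of calls moved as follows. In CL25 against O2ACH iPS the count of 0 became 1 without background correction, with an offset of 50, with the mean of the kept probes and with the replicate block; the gene was Cdx1 each time. In CL25 against ES cells the count of 1 became 0 without background correction (Notum adjusted p = 0.0506 by limma) and without the detection filter (0.147), where more genes were tested, and 2 with the replicate block. In O2ACH iPS against ES cells it was 0 under all alternatives run. Leaving out 1 array gave 0 to 1, 0 to 2 and 0 calls in the same order. Without CL25 replicate 1 the calls were Sp5 against O2ACH iPS, and Sp5 and Ccnd1 against ES cells. Among the 64 pathway genes, the 3 calls in CL25 against O2ACH iPS became 0 without the filter and 8 with the block; the 6 in CL25 against ES cells became 2 without the filter, 2 with the mean of probes and 10 with the block; the 0 in O2ACH iPS against ES cells became 1 with the mean of probes (Wnt3a) and 2 with the block. Leaving out 1 array gave 0 to 4, 0 to 8 and 0 to 1. Smaller losses were Bcl9 and Dkk3 without background correction (4 calls) and Dkk3 with an offset of 50 (5 calls) in CL25 against ES cells, and Btrc with the mean of probes (2 calls) in CL25 against O2ACH iPS. Other than where said, the cause was not tested. The mean of probes for Notum includes the probe listed under its synonym. With the replicate block all genes gave 649, 911 and 272 calls, against 283, 526 and 102 without it; the block changed no other call among the 7 genes than Cdx1 and Sp5. Of 312 alternative values for these genes 299 kept their side of the threshold, 8 newly passed and 5 no longer passed, all 5 for Notum in CL25 against ES cells. In 6 values, none of them past the threshold, the sign differed from that reported.

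The authors' normalised values could not be joined, since their row names match no probe column, and a slide block was not run because the headers name no slide. A line has 2 arrays, and a fit without 1 of them assumes that the lone array varies like those of the other lines. Leaving out 1 array also changed how many of all genes passed, so such counts say little about the Wnt genes themselves. Nkd1 lies at the detection level and Lef1, Myc and Mycn below it, so differences in these 4 genes were hardly or not detectable on these arrays.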
